A study of Mus musculus with 10 samples.

Results

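The cardiac lineage transcription factors are DNA-binding proteins, and 1 coactivator, that direct the formation of heart muscle and keep its genes expressed in the adult. The members Gata4, Gata6, Nkx2-5, Tbx5, Tbx20, Hand1, Hand2, Irx4 and Myocd were taken by gene symbol, and all 9 were found among the 23337 genes counted. Bulk RNA-Seq was performed on left ventricle (LV) and skeletal muscle (SkM) from 5 mice, so that each of the 10 libraries was labelled as 1 tissue of 1 animal. There were 2 WT mice and 3 E0del/+ mice, which are heterozygous for a deletion, made by genome editing with CRISPR, of E0, a conserved element in intron 1 of the titin gene Ttn. All mice were C57BL/6 and 129SvEv hybrids. The sample labels give neither the age nor the sex of each animal. Poly(A) RNA was made into libraries with Nextera XT, a kit that does not keep the strand. Total counts were between 11010021 and 17484873 per library.

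GATA zinc-finger proteins, the homeodomain protein NKX2-5, T-box proteins and the HAND basic helix-loop-helix proteins bind the promoters and enhancers of sarcomere, ion channel and natriuretic peptide genes, often side by side. Myocardin binds no DNA itself and acts through serum response factor at CArG boxes. Adult skeletal muscle makes many of the same sarcomere proteins, Ttn among them, under the control of other factors, chiefly the myogenic regulators of the MyoD family. The comparison of LV with SkM within each mouse therefore asks which cardiac factors are candidates for regulating Ttn enhancers in 1 tissue and not the other, and the comparison of E0del/+ with WT asks whether loss of the enhancer from 1 allele is accompanied by a change in these factors.

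The paper lists strings predicted as binding motifs for the human proteins of 3 members in a fragment of the human counterpart of the element. This fragment, tested in the study as an insert named E1 from intron 1 of TTN, is shown for that reason. Its 296 bases are printed in the direction of the insert, and the capitals mark the 10-base strings listed for GATA4 and GATA6 (bases 114 to 123) and for NKX2-5 (bases 229 to 238 and 252 to 261), all of which lie on the opposite strand of the insert.
E1: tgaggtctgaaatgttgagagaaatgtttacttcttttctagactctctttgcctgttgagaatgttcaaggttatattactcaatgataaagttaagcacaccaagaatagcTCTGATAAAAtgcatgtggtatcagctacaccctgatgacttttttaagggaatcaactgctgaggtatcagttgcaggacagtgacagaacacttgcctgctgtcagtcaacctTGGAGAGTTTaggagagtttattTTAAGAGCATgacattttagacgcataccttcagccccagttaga
The exact GATA string was found on either strand in 0.0426% of 32841 mouse promoters trimmed to the same length, the NKX2-5 string at base 229 in 0.116% and the one at base 252 in 0.0822%. Any fixed string of 10 bases is rare by its length alone, so these shares do not set the strings apart. TGATAA, which lies within the GATA string, was found in 9.05% of the untrimmed promoters. A match describes letters and not binding.

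Promoters from RefSeq on GRCm38.p6, each 250 bases before to 50 bases after a gene's start, were found for 4 of the 9 members (Nkx2-5, Tbx20, Hand2 and Irx4) and for 18 of 20 genes listed as targets of these factors. Both strands were searched for 6 motifs. For GATA proteins AGATAA was found in 11.2% and TGATAA, which shares 5 letters with it, in 9.05% of the 32841 promoters. The NKX2 motif TNAAGTG was found in 11.5%, the T-box motif GGTGTGA in 3.98%, the Iroquois motif ACANNTGT in 7.37% and the CArG box in 1.63% of them. Among the 4 members, Hand2 held both GATA motifs and the other 3 held none of the 6 motifs. Of the 18 target promoters, 7 held AGATAA, 4 TGATAA, 1 the NKX2 motif, 4 the T-box motif, 1 the Iroquois motif and 2 the CArG box. The promoters of Hand2 (chr8:57320733-57321032, plus strand), of the natriuretic peptide gene Nppa (chr4:148000472-148000771, plus strand) and of Ttn (chr2:76982498-76982797, minus strand) are shown because they are a member with matches, a target with matches for 3 families and the gene whose enhancer was deleted. Capitals mark the matches, which in Hand2 are TGATAA 215 bases and, on the minus strand, AGATAA 172 bases before the start. In Nppa they are GGTGTGA on the minus strand 250 bases, TGAAGTG 241 bases and TGATAA 122 bases before the start, and the Ttn window holds no match.
Hand2 promoter: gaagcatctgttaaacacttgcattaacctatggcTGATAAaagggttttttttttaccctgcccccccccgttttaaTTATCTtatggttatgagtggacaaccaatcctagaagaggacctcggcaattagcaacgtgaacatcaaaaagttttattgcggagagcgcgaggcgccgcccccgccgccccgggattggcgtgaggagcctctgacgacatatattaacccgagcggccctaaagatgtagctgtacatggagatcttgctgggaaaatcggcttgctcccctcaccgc
Nppa promoter: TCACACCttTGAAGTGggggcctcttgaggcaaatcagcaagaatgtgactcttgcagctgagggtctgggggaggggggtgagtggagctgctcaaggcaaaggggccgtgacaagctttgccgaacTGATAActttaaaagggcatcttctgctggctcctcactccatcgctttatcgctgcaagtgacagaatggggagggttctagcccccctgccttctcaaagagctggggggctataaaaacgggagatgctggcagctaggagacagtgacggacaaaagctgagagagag
Ttn promoter: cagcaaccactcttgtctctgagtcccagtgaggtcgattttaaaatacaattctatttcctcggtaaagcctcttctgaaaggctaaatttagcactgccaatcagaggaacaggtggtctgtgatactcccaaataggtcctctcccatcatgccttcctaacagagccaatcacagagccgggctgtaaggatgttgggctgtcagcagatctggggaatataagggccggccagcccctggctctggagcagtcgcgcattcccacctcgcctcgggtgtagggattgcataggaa

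The labelled tissues were checked against marker genes before the members were compared. The 5 ventricle markers (Myh6, Tnni3, Tnnt2, Mybpc3 and Ryr2) summed to between 53772 and 76698 counts per 1000000 counts of the library (CPM) in the LV libraries and to between 57.8 and 294 CPM in SkM. The 9 fast-fibre genes, led by the myosin heavy chain gene Myh4, summed to between 158950 and 169223 CPM in SkM. In 4 LV libraries they summed to between 157 and 181 CPM, but in WT LV replicate 2 they reached 39293 CPM. That library stood apart from the other LV libraries. Set against SkM of E0del/+ replicate 3, the excess of fast-fibre RNA in it had a median of 21.9% over the 9 genes, with a range of 20.7% to 24.7%, the narrowest of the 5 references. With each of the other 4 as reference, medians were at most 24.4% and single genes ran from 9.43% to 44.6%. Its 5 myogenic regulators summed to 23.8 CPM, against at most 0.154 CPM in the other LV libraries, and its 3 adipose genes to 228 CPM, against at most 20.4 CPM. Fold changes of members and of the genes named by the rule given below are therefore given with and without it. The order of members by RPKM and the correlations rest on all libraries. A second library, WT SkM replicate 1, held 4 Y-linked genes (Kdm5d, Uty, Ddx3y and Eif2s3y, chosen after their values were seen) at 21.6 CPM in sum, against 0.461 CPM in the LV of the same mouse and 158 and 177 CPM in SkM of WT replicate 2 and E0del/+ replicate 3.

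In the LV, 8 of the 9 members were expressed in every library, and in SkM the same 8 were at the edge of detection. Over all 5 SkM libraries the members summed to 190 of 76847326 counts. In LV against SkM, paired by mouse, edgeR called these 8 members higher in LV, and 32.1% of the 13283 genes tested were called higher in LV (31.5% without mouse WT 2) and 30% lower. All 8 passed the filter on low counts through their LV libraries alone, so the count of 8 holds no further information, and the values of each member follow. Hand1 did not pass the filter. In bulk tissue, fewer cells of a type and less RNA per cell cannot be told apart. The smallest p that an exact test of signs can give with 5 mice is 0.0625.

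**Figure D1:**
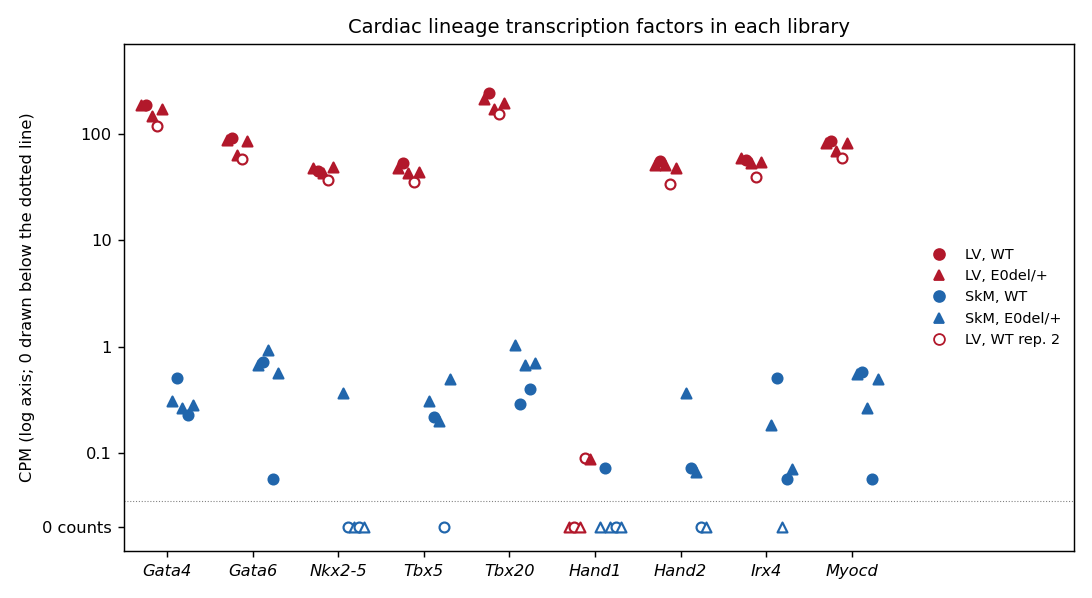
CPM of each of the 9 members in every library on a log axis, with LV in red, SkM in blue, WT as circles, E0del/+ as triangles, and open symbols for 0 counts or for WT LV replicate 2. Each of 8 members lies above 33 CPM in all 5 LV libraries and below 1.1 CPM in all 5 SkM libraries, and Hand1 has 0 or 1 count throughout.

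Gata4 and Gata6 encode zinc-finger proteins that open the cardiac program and remain expressed in adult cardiomyocytes. Gata4 stood at 185 and 118 CPM in WT LV replicates 1 and 2, and at 186, 146 and 172 CPM in E0del/+ LV replicates 1 to 3. In SkM it had 7 and 4 counts in WT and 5, 4 and 4 counts in E0del/+ mice. The lowest LV library, WT replicate 2, was still far above the highest SkM library, which held 0.504 CPM. Gata4 averaged 162 ± 29.1 CPM in LV (SD, n = 5) and 0.318 ± 0.108 CPM in SkM (n = 5). It was higher in LV in 5 of 5 mice, and without WT replicate 2 its LV mean was 172 ± 18.8 CPM (n = 4). Its log2 fold change was 8.32 ± 0.16 (SE, edgeR adjusted p = 2.31e-07) and 8.33 without mouse WT 2. Fold changes were fitted with TMM scaling, while CPM are scaled to total counts. With total counts the value was 8.96, and every tested member was higher than with TMM. Gata6 stood at 90.7 and 57.6 CPM in WT LVs and at 87.4, 63.5 and 85.4 CPM in E0del/+ LVs. Its SkM counts were 10 and 1 in WT and 11, 14 and 8 in E0del/+ mice. Averaged over the SkM libraries, its level relative to LV was the highest of any member. By mouse, the highest member was Irx4 in WT replicate 1, Tbx20 in WT replicate 2 and Tbx5 in E0del/+ replicate 3. Gata6 averaged 76.9 ± 15.2 CPM in LV (81.8 ± 12.4 CPM without WT replicate 2) and 0.590 ± 0.327 CPM in SkM, with a log2 fold change of 6.41 ± 0.35 (SE, edgeR adjusted p = 8.39e-06; 6.15 without mouse WT 2). In GENCODE M21, 93 of 6508 exon bases of Gata6 lie opposite the noncoding gene 1010001N08Rik. The deposited counts rest on 3194 exon bases of Gata6, so whether the shared bases were counted is not known. Any reads from them could not be told apart in these unstranded libraries.

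Nkx2-5 encodes the homeodomain protein that marks cardiac progenitors and cardiomyocytes. It stood at 45.1 and 37.2 CPM in WT LVs and at 48.2, 42.7 and 48.5 CPM in E0del/+ LVs. In SkM it had 6 counts in E0del/+ replicate 1 and 0 counts in the other 4 libraries. There 3 counts, the limit set here for a count of 0, amount to between 0.172 and 0.216 CPM. The exact two-sided 95% interval reached between 0.211 and 0.266 CPM in them. Nkx2-5 was thus not detectable at this depth in 4 of 5 SkM libraries. The LV mean was 44.3 ± 4.66 CPM (46.1 ± 2.75 CPM without WT replicate 2), with the smallest relative spread of the 8 members over all 5 LV libraries (coefficient of variation 10.5%). Its log2 fold change was 8.43 ± 0.54 (SE, edgeR adjusted p = 1.44e-05; 8.14 without mouse WT 2), and because 4 libraries are at 0 this fitted value depends on the prior count, reaching 11.83 when mouse E0del/+ 1 was left out. Irx4 encodes an Iroquois homeodomain protein restricted to the ventricles. It stood at 57.0 and 39.5 CPM in WT LVs and at 59.5, 53.0 and 54.3 CPM in E0del/+ LVs, and had 7 and 1 counts in WT SkM and 3, 0 and 1 counts in E0del/+ SkM. Irx4 averaged 52.7 ± 7.77 CPM in LV (56.0 ± 2.87 CPM without WT replicate 2) and 0.163 ± 0.202 CPM in SkM, with a log2 fold change of 7.72 ± 0.38 (SE, edgeR adjusted p = 6.28e-06; 7.57 without mouse WT 2 and 8.55 without mouse WT 1, which held 7 of its 12 SkM counts).

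Tbx5 and Tbx20 encode T-box proteins, the first an activator that acts with NKX2-5 and GATA4 and the second needed to keep the adult cardiomyocyte program. Tbx5 stood at 52.8 and 35.5 CPM in WT LVs and at 47.7, 42.9 and 43.4 CPM in E0del/+ LVs. Its SkM counts were 3 and 0 in WT and 5, 3 and 7 in E0del/+ mice. The tissues did not overlap, at 44.4 ± 6.43 CPM in LV (46.7 ± 4.64 CPM without WT replicate 2) and 0.243 ± 0.179 CPM in SkM. Its log2 fold change was 6.88 ± 0.36 (SE, edgeR adjusted p = 7.00e-06), 6.59 without mouse WT 2 and 7.53 when scaled to total counts. Tbx20 had the most counts of the members, at 240 and 154 CPM in WT LVs and 214, 173 and 195 CPM in E0del/+ LVs. In SkM it had 4 and 7 counts in WT and 17, 10 and 10 counts in E0del/+ mice. Tbx20 averaged 195 ± 33.8 CPM in LV (205 ± 28.6 CPM without WT replicate 2) and 0.621 ± 0.295 CPM in SkM, with a log2 fold change of 7.62 ± 0.27 (SE, edgeR adjusted p = 2.16e-06; 7.57 without mouse WT 2). For both T-box members WT LV replicate 1 was the highest and WT LV replicate 2 the lowest LV library, so the WT pair enclosed all 3 E0del/+ libraries.

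Hand2 encodes a basic helix-loop-helix protein of the embryonic ventricles, and Hand1 its close relative of the embryonic left ventricle and outer curvature. Hand2 stood at 56.0 and 33.7 CPM in WT LVs and at 51.0, 51.3 and 47.7 CPM in E0del/+ LVs. Its SkM counts were 1 and 0 in WT and 6, 1 and 0 in E0del/+ mice. Hand2 averaged 47.9 ± 8.51 CPM in LV (51.5 ± 3.41 CPM without WT replicate 2) and 0.102 ± 0.154 CPM in SkM, with a log2 fold change of 8.13 ± 0.43 (SE, edgeR adjusted p = 7.78e-06; 7.88 without mouse WT 2 and 9.49 without mouse E0del/+ 1, which held 6 of its 8 SkM counts). A noncoding gene, Hand2os1, lies opposite 461 of 2351 exon bases of Hand2 in GENCODE M21. The deposited counts rest on 2235 exon bases of Hand2, so whether the shared bases were counted is not known. Any reads from them could not be told apart. Hand1 was different from its relative. It had 1 count in WT LV replicate 2, 1 in E0del/+ LV replicate 3, 1 in WT SkM replicate 1 and 0 in the other 7 libraries, all under the limit of 3 counts, so it was not detectable at this depth in either tissue and no fold change is given.

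Myocd encodes myocardin, the coactivator of serum response factor in cardiac and smooth muscle. It stood at 86.4 and 59.2 CPM in WT LVs and at 82.9, 69.7 and 82.6 CPM in E0del/+ LVs. Its SkM counts were 8 and 1 in WT and 9, 4 and 7 in E0del/+ mice. The LV mean was 76.2 ± 11.4 CPM (80.4 ± 7.36 CPM without WT replicate 2) and the SkM mean 0.389 ± 0.222 CPM. Its log2 fold change was 7.00 ± 0.25 (SE, edgeR adjusted p = 2.16e-06), 6.76 without mouse WT 2 and 7.64 when scaled to total counts. As for the other 7 members, every LV library was above every SkM library by CPM, which was so for 52.1% of all genes tested. Like the 8 members, 1664 of the 13283 genes tested, a set chosen after the values were seen and with the members in it, passed the filter through their LV libraries alone. Of these, 66.5% had every LV library above every SkM library and 5.11% (85 genes, the 8 members among them) had a log2 fold change above 6. That cut lies below the lowest member (Gata6 at 6.41), so the place of the members above it holds no information. The median log2 fold change was 7.67 over the 8 members, 7.57 without mouse WT 2 and 8.31 when scaled to total counts.

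**Figure D2:**
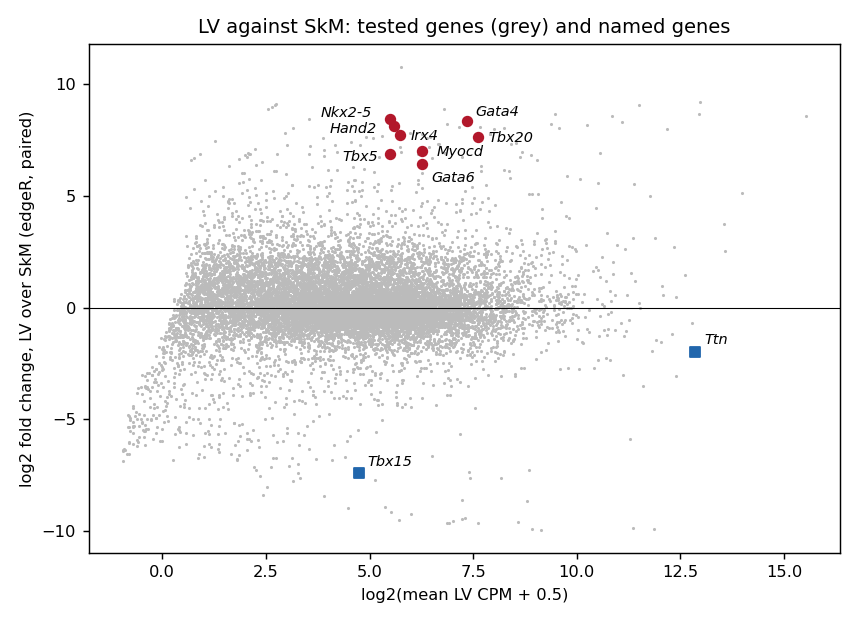
Log2 fold change of LV over SkM (edgeR, paired by mouse) against log2(mean LV CPM + 0.5) for the 13283 genes tested, in grey, with the 8 tested members as red circles and Ttn and Tbx15 as blue squares. The members lie between 6.41 (Gata6) and 8.43 (Nkx2-5), and Ttn and Tbx15 lie below 0 at -1.97 and -7.42.

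The low counts of the members in SkM were set beside those of the ventricle markers. Over the 5 SkM libraries, the members summed stood at 0.340% and the ventricle markers at 0.182% of their mean in the 4 LV libraries other than WT replicate 2. By mouse, the members in SkM were at 0.491%, 0.374% and 0.357% of the same animal's LV in E0del/+ replicates 1 to 3, and at 0.363% and 0.150% in WT replicates 1 and 2. The ventricle markers were at 0.384%, 0.235% and 0.0799% in E0del/+ and at 0.130% and 0.108% in WT mice. E0del/+ replicate 1 was the highest of the 5 in both. Single members ranged from 0.160% (Nkx2-5) and 0.184% (Gata4) to 0.521% (Tbx5) and 0.722% (Gata6), and single ventricle markers from 0.135% (Mybpc3) to 0.199% (Tnni3). The part of ventricular RNA in the members' SkM counts was not tested.

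Per length of transcript, on the RPKM scale, Gata4 was the most abundant member in LV at 47.6 ± 8.57 RPKM (SD, n = 5), above Nkx2-5 in 5 of 5 libraries with no overlap. Next came Nkx2-5 at 29.1 ± 3.06, Tbx20 at 28.3 ± 4.90, Gata6 at 24.1 ± 4.77, Hand2 at 21.4 ± 3.81 and Irx4 at 20.3 ± 2.99 RPKM, whose neighbours in this order overlapped in range. Tbx20 was above Gata6 in 5 of 5 libraries (exact sign-flip p = 0.0625, the smallest that 5 libraries allow). The order of Nkx2-5 and Tbx20 was not resolved (exact sign-flip p = 0.625, two-sided). Nor was that of Gata6 and Hand2 (exact sign-flip p = 0.188) or of Hand2 and Irx4 (exact sign-flip p = 0.25). Gata6 was above Hand2 in 4 of 5 libraries and Hand2 above Irx4 in 3 of 5. No pair could go below 0.0625 in this test, so these p-values do not show equal levels. Myocd at 14.9 ± 2.23 RPKM was below Irx4, and Tbx5 at 11.3 ± 1.63 RPKM below Myocd, in 5 of 5 libraries each, and without WT LV replicate 2 neither of these 2 pairs overlapped in range. Tbx20, which led by CPM, was below Nkx2-5 in 4 of 5 libraries per length, since its summed exons are 6.892 kb long and those of Nkx2-5 1.524 kb. Gata4 held the top place and Tbx5 the eighth in each of the 5 LV libraries.

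The paralogs of the members are 28 genes of the GATA, NKX2, T-box, Iroquois and myocardin families. Of the 15 that passed the filter, edgeR called 6 higher and 5 lower in LV than SkM (5 and 7 without mouse WT 2; 8 and 4 when scaled to total counts), with a median log2 fold change of 0.53, beside 32.1% higher and 30% lower among all genes tested. Tbx15, a T-box gene of limb and trunk mesenchyme and glycolytic muscle fibres, stood at 121 ± 21.6 RPKM in SkM (SD, n = 5), at between 0.383 and 0.832 RPKM in 4 LV libraries and at 34.3 RPKM in WT LV replicate 2. Its log2 fold change was -7.42 ± 1.04 (SE, edgeR adjusted p = 5.16e-04) and -8.31 without mouse WT 2. Tbx1, a gene of branchiomeric muscle, stood at 10.4 ± 2.19 RPKM in SkM and 0.942 RPKM in the mean of 4 LV libraries (log2 fold change -3.81 ± 0.36, edgeR adjusted p = 6.84e-05; -4.23 without mouse WT 2). Tbx4, chosen after its values were seen, had 0 counts in the same 4 LV libraries and 0.551 ± 0.192 RPKM in SkM. Other T-box paralogs, also chosen after their values were seen, were called higher in LV with all 5 mice. They were Tbx2 (log2 fold change 1.96 ± 0.17, SE), Tbx3 (1.08 ± 0.22) and Tbx18 (1.41 ± 0.28), whose values without mouse WT 2 are not given.

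Within the myocardin family, Mkl1, a coactivator that responds to actin, was lower in LV at 5.83 RPKM in the mean of 4 LV libraries and 25.9 ± 4.05 RPKM in SkM (log2 fold change -2.66 ± 0.16, edgeR adjusted p = 1.20e-05; -2.80 without mouse WT 2). Mkl2 had a log2 fold change of -0.42 ± 0.09 (edgeR adjusted p = 0.00494; -0.42 without mouse WT 2), which flipped to 0.25 when libraries were scaled to total counts, so its direction depends on the scaling. That scaling moved the median of all genes from 0.02 to 0.68 on the log2 scale and the share of calls that are higher in LV from 51.7% to 83.2%. Among other paralogs in LV, chosen after their values were seen, Irx3 stood at 9.47 RPKM and Gata2, a gene of endothelium and blood, at 7.96 RPKM in the mean of 4 LV libraries, with 3.17 ± 0.551 and 1.14 ± 0.262 RPKM in SkM. No NKX2 paralog had more than 1 count over the 5 libraries of either tissue.

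**Figure D3:**
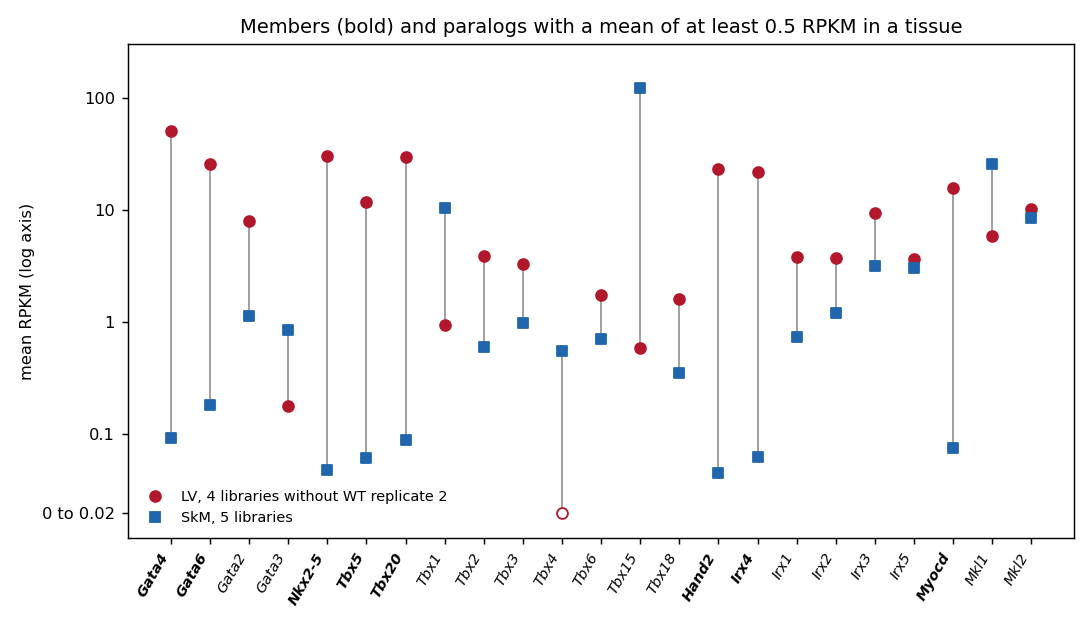
Mean RPKM on a log axis in LV (red circles, 4 libraries without WT replicate 2) and SkM (blue squares, 5 libraries) for the 23 members and paralogs that reached a mean of 0.5 RPKM in either tissue, with members in bold and an open circle for Tbx4, which had 0 counts in LV. LV is above SkM for each of the 8 members, while Tbx15 stands at 121 RPKM in SkM and 0.585 RPKM in LV, and Mkl2 is slightly higher in LV on this scale but lower in the TMM-scaled fit.

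Of the partners and cofactors of the members, 14 genes, 13 were tested, and 6 were called higher and 6 lower in LV (6 and 6 without mouse WT 2; 6 and 2 when scaled to total counts), beside the same 32.1% and 30% of all genes. The 4 most abundant differed among themselves. Hopx, which encodes a homeodomain-only protein, was at 147 RPKM in the mean of 4 LV libraries and 1.05 ± 0.203 RPKM in SkM. Its log2 fold change was 6.35 ± 0.12 (edgeR adjusted p = 2.31e-07) and 6.37 without mouse WT 2. Mef2c, a MADS-box factor of all striated muscle, went the other way, at 17.3 RPKM in LV and 129 ± 4.01 RPKM in SkM (-3.32 ± 0.24, edgeR adjusted p = 2.41e-05; -3.55 without mouse WT 2). Smarcd3, a subunit of the BAF chromatin remodelling complex, was also lower in LV at 34.2 against 96.3 ± 21.4 RPKM (-2.05 ± 0.12, edgeR adjusted p = 1.02e-05; -2.02 without mouse WT 2). Smyd1, a methyltransferase of striated muscle, had a log2 fold change of -0.85 ± 0.19 (edgeR adjusted p = 0.00551; -0.85 without mouse WT 2) and was not called when scaled to total counts (-0.19).

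Of 20 genes known as targets of these factors, 18 were called higher in LV and 2 lower (18 and 2 without mouse WT 2; 18 and 1 when scaled to total counts), beside 32.1% and 30% of all genes tested, with a median log2 fold change of 5.81 beside 0.02. The 4 most abundant encode sarcomere proteins. On the log2 scale the differences were 8.66 ± 0.45 for Tnnt2 (SE, edgeR adjusted p = 6.79e-06), 8.58 ± 0.63 for Myh6 (edgeR adjusted p = 2.43e-05), 5.53 ± 0.41 for Myl2 (edgeR adjusted p = 2.56e-05) and 3.75 ± 0.80 for Actc1 (edgeR adjusted p = 0.00424). Without mouse WT 2 they were 8.70, 8.39, 5.26 and 3.28, and Actc1 was at 3.08 without mouse E0del/+ 3. The 2 lower genes were Ttn itself and the adenosine receptor gene Adora1. Ttn stood at 7959 and 9344 CPM in WT LVs, 7737, 5560 and 6597 CPM in E0del/+ LVs, 24205 and 15856 CPM in WT SkM and 20092, 18854 and 13585 CPM in E0del/+ SkM. Every SkM library was above every LV library. The log2 fold change was -1.97 ± 0.33 (SE, edgeR adjusted p = 0.00131), -2.10 without mouse WT 2 and -1.31 when scaled to total counts. Thus the 8 members were high where Ttn was the lower of the 2 tissues, at 71.3 ± 13.7 RPKM in LV and 178 ± 39.0 RPKM in SkM. Adora1 had -0.77 ± 0.22 (edgeR adjusted p = 0.0162) and was not called when scaled to total counts (-0.10) or when mouse WT 1 (-0.64) or E0del/+ 2 (-0.57) was left out (-0.97 without mouse WT 2).

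Markers of other cell types also moved between the tissues. The 4 fibroblast genes were all called higher in LV, summing to between 465 and 881 CPM there and to between 69.6 and 199 CPM in SkM, with Dcn the most abundant. All 4 endothelial genes were called higher, from between 97.9 and 213 CPM in SkM to between 931 and 1855 CPM in LV, with Cdh5 the most abundant. The 3 mesothelial genes, among them Wt1, an epicardial gene, were called higher, from at most 0.572 CPM in SkM to between 22.7 and 47.5 CPM in LV. Several members, Gata4, Gata6 and Hand2 among them, are also known in epicardial or fibroblast cells, and the part of these cells in the members' levels was not tested. Of the other lists, 2 of 4 smooth muscle, 2 of 3 leukocyte, 1 of 2 conduction and 1 of 1 erythroid genes tested were called higher in LV, and 0 of 3 adipose genes were called. Lower in LV were 9 of 9 fast-fibre, 5 of 5 myogenic, 1 of 2 Schwann cell and 1 of 2 atrial genes tested. Without mouse WT 2 the calls were 1 smooth muscle and 0 erythroid genes higher, and 3 adipose genes and 1 of 3 conduction genes lower. Scaled to total counts, 2 of 2 conduction and 1 of 2 Schwann cell genes were called higher. The atrial gene Myl4 and the smooth muscle genes Tagln and Cnn1 changed sign there and were not called with either scaling.

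No member was called in the genotype comparison in LV. With edgeR, 0 of 8 members tested and 0% of 13420 genes were called between E0del/+ and WT, while 4.2% (564 genes, 0 of them members) had an unadjusted p under 0.05 and DESeq2 called 12 genes. DESeq2 gave an adjusted p for 2 members (Gata4 and Tbx20) and called neither, while its filter left the other 6 without one. Batch tags in the labels match the replicate numbers, so that batches 1 and 2 hold a mouse of each genotype, and with this replicate block 0.0373% (5 genes) were called, all lower in E0del/+: Mstn and the 4 Y-linked genes named above. The Y-linked genes summed to 0.461 and 222 CPM in WT LV replicates 1 and 2 and to 0.586, 3.27 and 211 CPM in E0del/+ LV replicates 1 to 3, so that they differed by mouse within each genotype, and only batch 2 set a high WT library beside a low E0del/+ library. Mstn stood at 43.3 CPM in WT LV replicate 2, at 0.461 CPM in WT LV replicate 1 and at 0.325, 0.908 and 0.698 CPM in E0del/+ LV replicates 1 to 3. The log2 fold changes of the members lay between -0.07 ± 0.23 (Tbx20) and 0.15 ± 0.18 (Irx4, SE), each with an edgeR adjusted p of 0.997. Without WT LV replicate 2 they lay between -0.30 (Tbx20) and 0.06 (Nkx2-5), again with 0 members and 0 of 13890 genes called (104 at an unadjusted p under 0.05), in a fit where the lone WT library is assumed to vary like the others.

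By library, the WT pair lay far apart and the E0del/+ libraries fell between or near them. Hand2 was at 44.8 ± 15.8 CPM in WT (SD, n = 2) and 50.0 ± 1.99 CPM in E0del/+ (n = 3, exact permutation p = 0.8, two-sided). Tbx20 was at 197 ± 60.9 CPM in WT and 194 ± 20.5 CPM in E0del/+ (exact permutation p = 1.0). Nkx2-5 was at 41.1 ± 5.60 CPM in WT and 46.5 ± 3.27 CPM in E0del/+ (exact permutation p = 0.4), the lowest p of the 8. This two-sided test cannot go below 0.2 with these groups. For all 8 members the groups overlapped. The 3 E0del/+ libraries were above WT LV replicate 2 for all 8, and all 3 were below WT LV replicate 1 for 5 members (Gata6, Tbx5, Tbx20, Hand2 and Myocd). Within batch 1 the ratio of E0del/+ to WT was between 0.891 (Tbx20) and 1.07 (Nkx2-5), and within batch 2, which holds WT LV replicate 2, between 1.10 (Gata6) and 1.52 (Hand2). Batch 3 holds an E0del/+ mouse alone and gives no ratio.

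**Figure D4:**
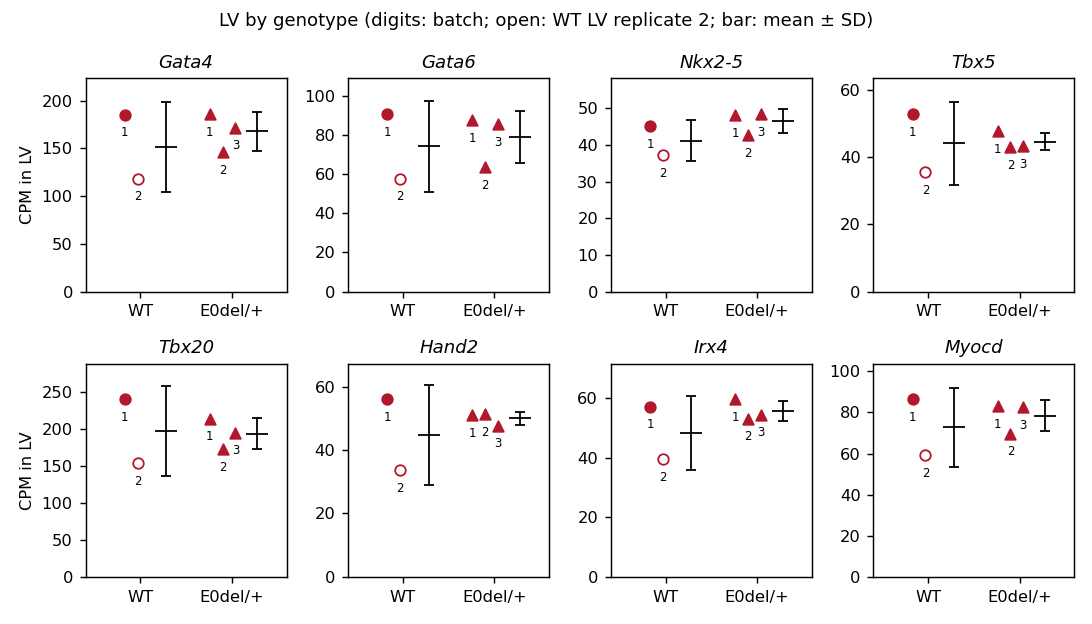
CPM of the 8 detected members in the 5 LV libraries, WT as circles and E0del/+ as triangles, with batch numbers under the points, bars for mean ± SD and WT LV replicate 2 as an open circle. In each panel WT LV replicate 2 is the lowest point, such as 33.7 CPM for Hand2 against 47.7 to 56.0 CPM in the other 4 libraries.

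WT LV replicate 2 was the lowest LV library for all 8 members. It held between 65.4% (Hand2) and 80.6% (Nkx2-5) of the mean of the other 4 libraries, with a median of 72.1%. Ventricle markers in it were at a median of 74.6%, endothelial markers at 67.4%, fibroblast markers at 82.6%, the 20 target genes at 71.4% and the 13 partners at 98.7%, beside fast-fibre genes at the levels given above. E0del/+ LV replicate 2 was the next lowest for 7 of 8 members, at a median of 86.2% of the other libraries (72.3% to 99.5%, below 100% for 8 of 8), while its ventricle markers stood at 88.0%, its endothelial markers at 155% and its fibroblast markers at 123%. In E0del/+ LV replicate 3 the members were at a median of 97.9%, ventricle markers at 107%, endothelial markers at 74.0% and fibroblast markers at 58.5%.

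**Figure D5:**
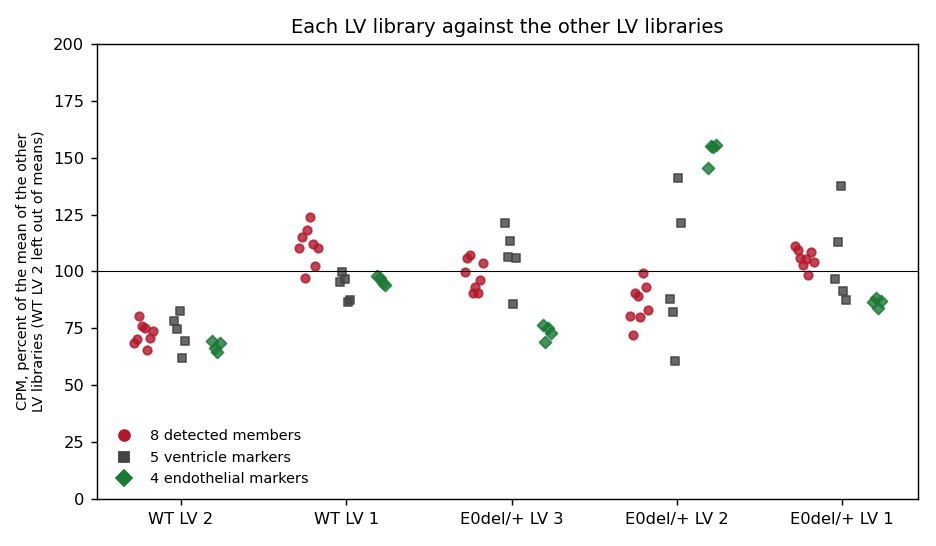
CPM of 8 members (circles), 5 ventricle markers (squares) and 4 endothelial markers (diamonds), 1 point a gene, in each LV library, as a percentage of the mean of the other LV libraries (WT LV replicate 2 left out of the means). In WT LV replicate 2 all 3 sets lie below 100%, and in E0del/+ LV replicate 2 the endothelial markers lie at 155% and the members at 86.2% (medians).

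Ttn, whose enhancer was deleted, was read in the same LV libraries. It averaged 8651 ± 980 CPM in WT (n = 2) and 6631 ± 1089 CPM in E0del/+ (n = 3), or 76.7% of WT. The groups did not overlap (exact permutation p = 0.2, two-sided, the smallest that these groups allow). The log2 fold change was -0.45 (edgeR adjusted p = 0.997) and -0.25 without WT LV replicate 2, the library with the highest Ttn, and the ratio was 0.972 within batch 1 and 0.595 within batch 2. The paper reports a significant decrease of Ttn in E0del/+ LVs from more mice per genotype. It also reports a lower share of the deleted allele in LV and SkM of hybrid mice. Expression by allele was not examined here. In the other lists edgeR called 0 genes in the genotype comparison, and DESeq2 called 7 of the 9 fast-fibre genes and 0 genes of the rest. The 9 fast-fibre genes all had a negative log2 fold change, with a median of -6.85 that became 0.18 without WT LV replicate 2. The interaction of tissue and genotype was called by edgeR for 0% of 14327 genes (238 at an unadjusted p under 0.05; 0 by DESeq2), members included, and for 155 genes without mouse WT 1. Of the members, Tbx20 was among the 238 (log2 -1.19 ± 0.43, SE, edgeR adjusted p = 1; -1.96 without mouse WT 2 and -0.61 without mouse WT 1), a value that rests on between 4 and 17 SkM counts per library. Without mouse WT 1 the members ran from -5.33 (Tbx5) to 0.25 (Gata4), and without mouse WT 2 from -4.21 (Nkx2-5) to 2.23 (Irx4). Each of these fits holds 1 WT mouse, so the E0del/+ mice supply the spread. Tbx5 had 0 counts in WT SkM replicate 2 and Nkx2-5 had 0 in WT SkM replicate 1. The lowest value of each fit is thus set against a count of 0. The ventricle markers in SkM, given above, were also higher in 2 of 3 E0del/+ mice than in both WT mice.

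Over the 10 libraries, the genes most like each member by Pearson's r of log2(CPM + 0.5) were found by rule. They were the connexin gene Gja1 and Ppm1e for Gata4 (r = 0.9993 and 0.9989), and Pam and the potassium channel gene Kcnq1 for Gata6 (0.9996 and 0.9987). For Nkx2-5 they were Fhl2 and the cardiac myosin light chain kinase gene Mylk3 (0.9995 and 0.9993), and for Irx4 Mfhas1 and Crip2 (0.9993 and 0.999). Tbx5 was most like Lrrc15 and Myocd (0.9995 and 0.9987), and Tbx20 most like Mov10l1 and the phospholamban gene Pln (0.999 and 0.9987). Hand2 was most like Fhl2 and the connexin gene Gja3 (0.9995 and 0.9991), and Myocd most like Gja1 and the cardiac kinase gene Tnni3k (0.9995 and 0.9994). These values describe a step between 2 tissues, since between 223 and 368 genes had an r above 0.99 with a member.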

How the data were processed

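Raw counts per gene and RPKM were deposited by the authors for each library, from STAR on mm10 according to the submitters' processing notes, which also name DESeq2. The counter, annotation and versions are not given in the sources used here. The deposited RPKM values equal the count divided by exon length and total counts, and served for levels between genes. CPM is the count per 1000000 counts of the library. Tests across genes used edgeR 4.0.16 in R 4.3.3 (filterByExpr, TMM, quasi-likelihood test, Benjamini-Hochberg adjustment, threshold 0.05) on all genes. LV was compared with SkM with the mouse as a block, and E0del/+ with WT over the 5 LV libraries without a block. Single values were compared by exact permutation over mice, two-sided.

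Both tissues of a mouse pair by animal, and batch numbers in the labels pair genotypes. The correlation of deviations from group means across genes was between -0.106 and 0.131 for the tissues of a mouse, and 0.0318 and -0.173 in LV batches 1 and 2. Alternatives were DESeq2 1.42.0, its size factors, total counts, other filters (none, or at least 10 counts in every library), a replicate block or none, Xist expression (over 100 CPM) as a block, E0del/+ mice alone, 1 fit over all libraries and each mouse left out. The p-values of the paired fit rest on the spread of the tissue difference over mice. Those of the genotype comparison without a block rest on the spread between mice. The sign-flip p-values rest on the difference between 2 genes over the LV libraries. The limit set for counts of 0 (3 counts) covers counting error only. The members and the lists (paralogs, partners, targets and cell type markers) were chosen with earlier results of these data known. By rule, the genes named are the members, the 4 most abundant of the paralogs, partners and targets by RPKM, up to 4 called against their list's majority, and the 2 genes most like each member.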

Additional observations from a re-analysis of the deposited data

How the results depend on the processing

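The 8 members pass the filter through their LV libraries alone, so their calls in each setting in which they were tested do not speak for stability. With no filter, 8 of the 9 members were called, and Hand1 was not. Under the filter of at least 10 counts in every library, 0 members were left to test, since their SkM counts are too low, and 0 were called. With total counts, 2 paralogs and 2 partners changed sign between LV and SkM: Mkl2 (0.25, called in both cases), Mef2a (0.36, not called in either case) and, chosen after their values were seen, Irx5 (from -0.38 to 0.28, not called in either case) and Mef2d (from -0.56, called, to 0.11, not called). In the LV genotype comparison 0 genes were called by edgeR, 12 by DESeq2, 5 with the replicate block and between 0 and 578 when a library was left out. The 578 came without WT LV replicate 1, where 574 were lower in E0del/+ and 317 of these were also called lower in LV than SkM. Called genes of the interaction were between 0 and 155 when a mouse was left out. No member was called for genotype in any setting, though DESeq2 gave an adjusted p for only 2 of the 8 (Gata4 and Tbx20), and while Nkx2-5 was positive in 14 of 14 fits (0.031 to 0.24), the signs of the other 7 log2 fold changes were not stable: Gata6 was at -0.073 and Myocd at -0.030 with the replicate block, and Tbx5 at 0.015 with total counts. With each library left out in turn the values ran from -0.13 to 0.39 for Gata4, -0.18 to 0.34 for Gata6, -0.24 to 0.21 for Tbx5, -0.30 to 0.21 for Tbx20, -0.16 to 0.44 for Hand2, -0.026 to 0.37 for Irx4 and -0.13 to 0.29 for Myocd. In each case the lowest value came without WT LV replicate 2. The cause of these changes was not tested. With 2 WT mice and between 0 and 17 counts per member in SkM, depth limits what can be said of the members in SkM, and the number of mice what can be said of genotype.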
